A study of Mus musculus with 3 samples.

Results

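Translation initiation and elongation factors are the proteins that bring ribosomes to messenger RNA and move them along it. Their probes were taken by gene symbol: every probe row whose platform annotation gives a symbol starting with Eif and a digit, with Eef1 or with Eef2, or the symbol Pabpc1, leaving out the 22 probes of Eef2 itself. This gave 98 probes of 57 genes, out of 38976 probe rows and 15056 named genes in all. Of the 57 genes, 28 had 1 probe, 21 had 2 and 8 had 3 or more, and all 98 probes had a value on every array. The rule used names and no measured value.

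The study forced expression of GATA-3, a transcription factor of the luminal lineage of the mammary gland, in carcinomas of MMTV-PyMT mice, whose mammary epithelium expresses the polyoma middle T oncogene under a mammary tumor virus promoter. Primary cultures of these carcinomas received the PMIG retrovirus, which carries an IRES-GFP cassette, either with full-length GATA-3 or empty, and were grafted into wild-type mice whose fat pads had been cleared of their own mammary epithelium. Total RNA was isolated from tumors grown for 6 weeks, so both tumors carried the oncogene, the virus and the host's own stroma, vessels and blood cells. Each of 3 two-color arrays set RNA of a GATA-3 tumor, labelled with Cy5, against RNA of an empty-vector tumor, labelled with Cy3. Nothing in the labels says whether each array used tumors of separate mice, so the p-values measure only the spread between these 3 arrays, and that spread may be technical. Array numbers 1 to 3 serve only as names; arrays 2 and 3 share a title prefix that array 1 does not have.

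Values are the authors' log ratios, taken as log2 of GATA-3 tumor over empty-vector tumor, with the median of each array set to 0. A positive value therefore stands for more RNA in the GATA-3 tumors. The log base and the direction are likely from the labels but not stated, and the opposite direction would turn every sign. With no dye swap, the dye and the tumor cannot be told apart as sources of a probe's ratio. In whole tumors, fewer cells of a type and less RNA per cell cannot be told apart either. The files hold ratios only, so neither the brightness behind a value nor the level of a marker can be given, and the number of arrays limits the precision. A probe passed the test where limma's adjusted p, by Benjamini-Hochberg over all 38975 probes with 3 values, was under 0.05. A second fit, by gene, averaged the probes of each symbol, with the same threshold over 31059 rows. The words "rose" and "fell" are used only of probes or gene averages past that threshold. Genes of the pathway and marker lists are given by the fit by gene. Errors are SDs over the 3 arrays. The Gata3 probe gave 0.74, 0.86 and 0.79 on arrays 1, 2 and 3 (mean 0.80 ± 0.06, limma adjusted p = 0.00319), positive on each.

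Translation begins when eIF4E binds the cap of a messenger RNA, the scaffold eIF4G and the helicase eIF4A open its 5′ end, and a small ribosomal subunit with eIF3 and the initiator tRNA on eIF2 scans for the start codon. The exchange factor eIF2B recharges eIF2, and stress kinases that phosphorylate the alpha subunit of eIF2 block this step. In elongation, eEF1A delivers the aminoacyl tRNA and the eEF1B complex recharges eEF1A. In mammary tumors eIF4E is known as a growth-promoting factor, which the 4E-binding proteins hold back. Many messages of the translation machinery carry a 5′ terminal oligopyrimidine (TOP) tract, through which mTORC1 signaling controls their translation.

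The RefSeq promoter table (GRCm38.p6) matched 45 of the 57 genes by symbol. Since GATA-3 binds GATA elements, the 250 bases before each gene's start, the first listed where there are several, were searched on both strands for the hexamer AGATAA, likewise for the hexamer TGATAA, and for both of these hexamers with a final G in place of the final A. A match lay in the window of 5 of the 45 genes (11.1%), against 7322 of all 27018 genes (27.1%). The E-box CACGTG, a site of MYC-family factors that reads the same on both strands, lay in 8 of the 45 windows (17.8%), against 1634 of all 27018 (6.05%). The 27018 genes are all those of the promoter table, on the array or not, and the windows were not matched for base content. A match is a description of letters, not a bound site. The 5 windows with a GATA match are printed with the matches in capitals, so that they can be set beside the ratios given further on. CTATCT is AGATAG on the other strand, and the capitals CACGTG in the Eif4a1 window are its E-box.
Eif4a1 (chr11:69672424-69672673, minus strand): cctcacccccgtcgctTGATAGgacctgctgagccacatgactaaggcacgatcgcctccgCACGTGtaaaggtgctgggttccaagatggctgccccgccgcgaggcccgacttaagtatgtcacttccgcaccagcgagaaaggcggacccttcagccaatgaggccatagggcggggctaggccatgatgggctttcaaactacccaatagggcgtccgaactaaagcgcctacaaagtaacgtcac
Eif3l (chr15:79074973-79075222, plus strand): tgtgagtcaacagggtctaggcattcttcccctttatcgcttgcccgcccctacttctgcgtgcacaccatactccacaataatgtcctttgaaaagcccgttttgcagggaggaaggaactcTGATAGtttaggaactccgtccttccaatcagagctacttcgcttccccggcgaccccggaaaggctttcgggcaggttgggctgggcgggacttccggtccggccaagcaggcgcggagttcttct
Eif4e (chr3:138525941-138526190, plus strand): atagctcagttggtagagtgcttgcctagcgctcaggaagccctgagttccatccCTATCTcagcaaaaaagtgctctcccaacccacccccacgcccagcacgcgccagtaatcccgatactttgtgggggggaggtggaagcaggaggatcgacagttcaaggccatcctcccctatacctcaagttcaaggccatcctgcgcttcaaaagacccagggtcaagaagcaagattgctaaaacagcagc
Eif3c (chr7:126566367-126566616, minus strand): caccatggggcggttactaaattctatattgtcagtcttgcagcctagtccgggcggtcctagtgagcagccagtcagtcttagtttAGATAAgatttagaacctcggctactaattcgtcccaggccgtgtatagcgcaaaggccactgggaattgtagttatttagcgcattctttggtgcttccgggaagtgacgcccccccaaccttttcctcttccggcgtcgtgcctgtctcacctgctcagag
Eef1akmt2 (chr7:132852648-132852897, minus strand): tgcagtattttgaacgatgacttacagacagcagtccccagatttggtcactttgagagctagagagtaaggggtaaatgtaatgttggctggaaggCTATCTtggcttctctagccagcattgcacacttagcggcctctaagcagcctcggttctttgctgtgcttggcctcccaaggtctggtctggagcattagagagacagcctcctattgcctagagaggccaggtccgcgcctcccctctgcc

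None of these 5 genes rose in the fit by gene, where 31.7% of all rows rose and 24.1% fell. With probes averaged per gene, Eif4a1 (-1.04 ± 0.29), Eif3l (-0.29 ± 0.11) and Eif4e (-0.30 ± 0.15) fell, while Eif3c (0.20 ± 0.04) and Eef1akmt2 (-0.14 ± 0.07) did not pass. The gene calls of Eif3l and Eif4e were lost without any 1 array (limma adjusted p of 0.0501, 0.191 and 0.125 for Eif3l without arrays 1, 2 and 3, and 0.0789, 0.131 and 0.113 for Eif4e). Windows without a match were the common case, since 5 of the 45 held a GATA match and 8 an E-box. Whether a match goes with the direction of a ratio was not tested. The windows of Eif2ak4 and Eif2ak3, picked as the kinase genes with the highest ratios, held neither motif and are shown as examples.
Eif2ak4 (chr2:118388367-118388616, plus strand): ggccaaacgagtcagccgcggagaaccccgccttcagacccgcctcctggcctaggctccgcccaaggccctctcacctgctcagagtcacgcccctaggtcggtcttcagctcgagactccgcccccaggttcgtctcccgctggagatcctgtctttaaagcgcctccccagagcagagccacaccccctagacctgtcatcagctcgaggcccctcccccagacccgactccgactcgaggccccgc
Eif2ak3 (chr6:70844265-70844514, plus strand): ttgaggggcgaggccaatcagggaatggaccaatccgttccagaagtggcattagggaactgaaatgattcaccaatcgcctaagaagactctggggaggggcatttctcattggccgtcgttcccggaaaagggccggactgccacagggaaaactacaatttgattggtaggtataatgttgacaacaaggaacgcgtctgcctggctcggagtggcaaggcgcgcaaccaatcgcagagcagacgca

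The translation factors split between both directions, with more probes lower than higher in the GATA-3 tumors. Of the 98 probes 25 rose, 37 fell and 36 did not pass. The share past the test was 63.3%, beside a background of 57.3% of all probes. Rising probes were 25.5% of the members and 31.4% of all probes, and falling probes 37.8% of the members and 25.9% of all probes. The median of the mean log2 ratios was -0.19 over the 98 probes and -0.02 over all probes, and the members' medians on arrays 1, 2 and 3 were -0.24, -0.15 and -0.10. The mean ratio was negative for 60 member probes (61.2%, against 51.1% of all probes). It reached 1 in size for 9 (9.18%, against 8.25%), and 81 had 1 sign on all 3 arrays (82.7%, against 76.7%). Of the 22972 probes with a gene symbol, which all members have, 60.2% passed, 31.7% rose and 28.5% fell. Their median was -0.05, 53.1% had a negative mean, 8.52% reached 1 in size and 78.7% had 1 sign on all 3 arrays. With probes averaged per gene, 12 of the 57 genes rose and 20 fell, so 56.1% passed, beside a background of 55.8% (31.7% positive and 24.1% negative). The 62 calls became 66 without array 1, 39 without array 2 and 38 without array 3; by gene, the 32 calls became 14 without array 3.

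**Figure D1:**
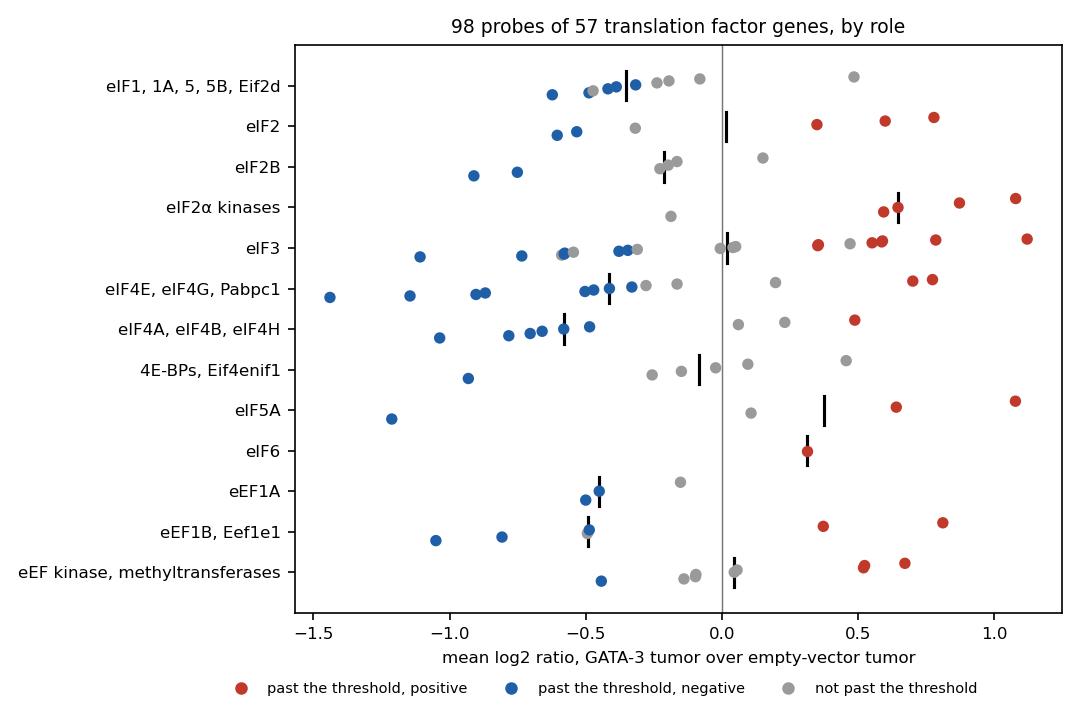
Each dot is the mean log2 ratio over 3 arrays (x axis, GATA-3 tumor over empty-vector tumor) of 1 of the 98 probes, in rows by the role of its gene, with the row's median as a bar; red dots rose, blue dots fell and grey dots did not pass limma's test. The row of eIF2 alpha kinases has the highest median, 0.65, and the row of eIF4A and its cofactors the lowest, -0.58.

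The kinases of eIF2 alpha lay on the high side. Each answers to a stress: Eif2ak1 (HRI) to lack of heme, Eif2ak2 (PKR) to double-stranded RNA, Eif2ak3 (PERK) to unfolded protein in the endoplasmic reticulum and Eif2ak4 (GCN2) to uncharged tRNA. The Eif2ak4 probe gave 0.97, 1.30 and 0.97 on arrays 1, 2 and 3, a mean of 1.08 ± 0.19 or 2.11-fold (limma adjusted p = 0.00319). Eif2ak3 gave 0.86, 0.75 and 1.01 (mean 0.87 ± 0.13, adjusted p = 0.00319) and Eif2ak2 0.63, 0.66 and 0.49 (mean 0.59 ± 0.09, adjusted p = 0.00488). These 3 genes rose, with each array positive. Eif2ak1 had a pair of probes that differed: probe 24131 gave 0.61, 0.65 and 0.68 (mean 0.65 ± 0.03, adjusted p = 0.0036), and probe 5946 -0.27, -0.05 and -0.24 (mean -0.19 ± 0.12, adjusted p = 0.137). The first rose and the second was slightly negative on every array, and the gene mean of 0.23 ± 0.07 did not pass (adjusted p = 0.06). In all 4 of 5 probes rose, beside 31.4% of all probes. None of the 4 calls was lost when any 1 array was left out.

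Genes known as targets of eIF2 alpha phosphorylation, mostly through the transcription factor ATF4, were counted as a list of 12, of which 11 were measured. Of these 2 rose and 6 fell, beside 31.7% and 24.1% of all rows of the fit by gene. The median of the 11 was -0.41. The calls of this list numbered 9 without array 1, of which 3 rose and 6 fell. They numbered 6 without array 2 and 5 without array 3, with 1 that rose in each case. Slc7a11 and Phgdh lost the call without array 2 or array 3 (limma adjusted p = 0.124 and 0.131 without array 2, 0.1 and 0.0688 without array 3), Atf5 without array 2 (0.0765) and Sesn2 without array 3 (0.119). Without array 1 Phgdh lost the call too (limma adjusted p = 0.0817), and Psat1 passed with a positive mean (0.0347). Ddit4, an inhibitor of mTORC1, fell (-0.996 ± 0.23, limma adjusted p = 0.0032), as did Ddit3, which encodes the stress factor CHOP (-0.85 ± 0.26, adjusted p = 0.00478). Chac1, a glutathione-degrading enzyme, rose (0.94 ± 0.27, adjusted p = 0.00392). Atf4 itself gave -0.53 ± 0.44 and did not pass (adjusted p = 0.0513), though it did without array 1 (0.0492) or array 2 (0.0314). Protein levels and phosphorylation were not measured.

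For eIF2 and its partners, 3 of 6 probes rose and 2 fell, beside 31.4% and 25.9% of all probes. The median of the 6 probes was 0.02. This median was -0.04 with the values as deposited, -0.02 without array 2 and -0.05 without array 3. Eif2s2, the beta subunit, fell by probe 4737, with -0.52, -0.67 and -0.41 (mean -0.53 ± 0.13, adjusted p = 0.0077), and rose by probe 10603, with 0.28, 0.34 and 0.43 (mean 0.35 ± 0.07, adjusted p = 0.0208). Eif2a, which can deliver initiator tRNA apart from the eIF2 complex, also went both ways, at -0.60 ± 0.09 (adjusted p = 0.00459) and 0.60 ± 0.27 (adjusted p = 0.0128) by limma. Both genes thus averaged close to 0. The gamma subunit has a copy on each sex chromosome. The X-linked Eif2s3x gave -0.69, -0.15 and -0.12 (mean -0.32 ± 0.32, adjusted p = 0.105), and the Y-linked Eif2s3y 0.09, 1.34 and 0.91 (mean 0.78 ± 0.63, adjusted p = 0.0409). Eif2s3y was near 0 on array 1 and high on arrays 2 and 3, and Eif2s3x was lowest on array 1. The sex of tumor donors and hosts is not given here. Whether the Eif2s3y probe read the Y-linked transcript or similar sequence was not tested. The positive calls of Eif2s2 and Eif2s3y were lost without array 2 (adjusted p of 0.0854 and 0.109) and without array 3 (0.161 and 0.148), and that of Eif2a without array 3 (0.0671).

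Of the 6 probes of the eIF2B complex 2 fell and none rose, with a median of -0.21, where 57.3% of all probes passed the test and 25.9% passed with a negative mean. Eif2b5, the catalytic subunit, fell by probe 15346, with -0.65, -1.28 and -0.80 (mean -0.91 ± 0.33, adjusted p = 0.00567) by limma. Its other probe gave -0.20 ± 0.20 and did not pass (adjusted p = 0.17). Eif2b1, a regulatory subunit, fell by probe 27487, with -0.92, -0.76 and -0.58 (mean -0.75 ± 0.17, adjusted p = 0.00404), while probe 16534 gave -0.16 ± 0.11 (adjusted p = 0.17). In both genes the probes had the same sign and unequal size. Eif2b2 gave -0.23 ± 0.03 (adjusted p = 0.0637) and Eif2b4 0.15 ± 0.24 (adjusted p = 0.312), and neither passed.

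Factors of scanning and start selection had 9 of 10 probes negative, with 5 that fell and a median of -0.35. Among all probes 51.1% had a negative mean and 25.9% fell. Eif2d, which can place tRNA on the small subunit, gave -0.94, -0.45 and -0.48 (mean -0.62 ± 0.28, adjusted p = 0.012) by limma, low on each array. Eif5b, the GTPase that joins the subunits, fell on 2 of its 3 probes: probe 5379 gave -0.38, -0.54 and -0.24 (mean -0.39 ± 0.15, adjusted p = 0.0227), probe 2926 -0.51, -0.30 and -0.14 (mean -0.32 ± 0.18, adjusted p = 0.0496) and probe 16875 -0.36, -0.10 and -0.13 (mean -0.19 ± 0.15, adjusted p = 0.14). All 9 values of the gene were negative. Eif1b, a relative of the start codon gatekeeper eIF1, gave -0.42 ± 0.15 (adjusted p = 0.0182). Eif1ax, an X-linked gene for eIF1A, fell by probe 25866 (-0.49 ± 0.31, adjusted p = 0.0308) and gave 0.49 ± 0.43 by probe 4260, which did not pass (adjusted p = 0.0633). Without array 1 both probes passed, in opposite directions (limma adjusted p of 0.0473 and 0.00405). Eif5, which triggers GTP hydrolysis by eIF2, gave -1.44, -0.13 and 0.16 (mean -0.47 ± 0.85, adjusted p = 0.245): it was far below 0 on array 1 only. Eif1a (-0.24 ± 0.11) and Eif1ad (-0.08 ± 0.05) did not pass, though Eif1a just did without array 1 (limma adjusted p rounded to 0.05). Of the 5 calls, 4 were lost without array 2 (Eif1ax, Eif1b and both of Eif5b, adjusted p from 0.0768 to 0.136) and 3 without array 3 (Eif1b and both of Eif5b, 0.0601 to 0.106); Eif5b probe 2926 was lost without array 1 too (0.0975).

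The 20 probes of the 10 measured eIF3 genes were evenly split: 7 rose and 6 fell, beside 31.4% and 25.9% of all probes. The eIF3 median was 0.02. The median was -0.04 with the values as deposited, -0.07 without array 2 and -0.01 without array 3. eIF3 is the scaffold that binds the small subunit and recruits messenger RNA. Eif3a, its largest core subunit, fell by probe 23264, with -1.22, -1.20 and -0.91 (mean -1.11 ± 0.17, adjusted p = 0.00319) by limma, while probe 7929 gave 0.05 ± 0.31 (adjusted p = 0.768). Eif3k fell, with -0.76, -0.57 and -0.41 (mean -0.58 ± 0.18, adjusted p = 0.0079), and Eif3l fell by probe 30095 (-0.58 ± 0.19, adjusted p = 0.00894) but gave -0.01 ± 0.03 by probe 18615. Eif3m rose on both probes (0.59 ± 0.07 and 0.35 ± 0.11). Of these 4 genes only Eif3m had a pair of called probes, so agreement between called probes could be seen there alone.

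Eif3c, another core subunit, rose by probe 27437, with 0.87, 0.75 and 0.74 (mean 0.79 ± 0.08, adjusted p = 0.00319), and fell by probe 37101, with -0.56, -0.28 and -0.30 (mean -0.38 ± 0.16, adjusted p = 0.0258). Eif3e did the same, with 0.71, 0.45 and 0.51 (mean 0.55 ± 0.14, adjusted p = 0.00722) for probe 27107 and -1.04, -0.78 and -0.38 (mean -0.73 ± 0.33, adjusted p = 0.0105) for probe 5493. In both genes the values of one probe lay wholly above those of the other. Eif3j1, which encodes the loosely bound j subunit, had 5 probes, all with a positive mean. Probe 36500 gave 0.04, 1.95 and 1.38 (mean 1.12 ± 0.98, adjusted p = 0.0459) by limma, probe 11335 0.18, 0.92 and 0.67 (mean 0.59 ± 0.38, adjusted p = 0.0268) and probe 38940 0.39, 0.26 and 0.40 (mean 0.35 ± 0.08, adjusted p = 0.0207). Those 3 rose, though the first was near 0 on array 1 and far above it on the others. Probe 12149 gave 1.32, 0.03 and 0.06 (mean 0.47 ± 0.74, adjusted p = 0.195) and probe 20077 -0.28, 0.27 and 0.13 (mean 0.04 ± 0.29, adjusted p = 0.803). So probe 12149 was high on array 1 alone, the reverse of probe 36500. Averaged over its probes Eif3j1 rose (0.51 ± 0.18, adjusted p = 0.0109), a call lost without array 3 (0.0777).

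Of the other eIF3 genes, Eif3h gave -1.64, -0.08 and -0.05 (mean -0.59 ± 0.91, adjusted p = 0.184) and Eif3i -1.04, -0.57 and -0.02 (mean -0.54 ± 0.51, adjusted p = 0.0658). Both were lowest on array 1 and did not pass, though Eif3i did without array 3 (limma adjusted p = 0.036). Eif3b had negative probes at -0.35 ± 0.19 (adjusted p = 0.0417) and -0.31 ± 0.32 (adjusted p = 0.111), of which the first fell. Of the 13 eIF3 calls by limma, 6 were lost without array 2 (Eif3b 10481, Eif3c 37101, 3 of Eif3j1 and Eif3m 28248, adjusted p from 0.0584 to 0.127). Without array 3 the same 6 and Eif3e 27107 were lost (0.0526 to 0.258).

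Among cap-binding and scaffold factors 8 of 13 probes fell and 2 rose, beside 25.9% and 31.4% of all probes. The median of the 13 was -0.41. Pabpc1, which binds the poly(A) tail and joins it to eIF4G, fell on all 3 probes and had the lowest mean of the 98. Probe 27269 gave -1.24, -1.70 and -1.38 (mean -1.44 ± 0.24, adjusted p = 0.00319) by limma, probe 5469 -1.23, -1.42 and -0.79 (mean -1.15 ± 0.32, adjusted p = 0.00344) and probe 16693 -0.63, -0.55 and -0.23 (mean -0.47 ± 0.21, adjusted p = 0.0184). Every one of the 9 values was negative, though the probes differed in size, and over the gene the mean was -1.02 ± 0.21. The call of probe 16693 was lost without array 2 (adjusted p = 0.0712).

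Eif4e, the cap-binding protein itself, had 3 probes with small negative means. Probe 24486 gave -0.40, -0.54 and -0.30 (mean -0.41 ± 0.12, adjusted p = 0.016) by limma, probe 3809 -0.48, -0.38 and -0.13 (mean -0.33 ± 0.18, adjusted p = 0.0431) and probe 707 -0.48, 0.05 and -0.06 (mean -0.16 ± 0.28, adjusted p = 0.316). The first pair fell, and both lost the call without array 2 (adjusted p of 0.0872 and 0.152) or array 3 (0.0719 and 0.0856), probe 3809 also without array 1 (0.0844). Eif4e2, a weaker cap binder linked to repression, gave -0.28 ± 0.13 and 0.20 ± 0.22, neither past the test. The positive probe, 7990, passed without array 1 (adjusted p = 0.0277). Eif4e3, the third cap-binding relative, rose by probe 33934, with 0.87, 0.68 and 0.77 (mean 0.77 ± 0.10, adjusted p = 0.00323), and fell by probe 11116, with -0.23, -0.72 and -0.56 (mean -0.50 ± 0.25, adjusted p = 0.019). Probe 11116 lost its call without array 2 (0.0794) or array 3 (0.108).

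Eif4g3, a homolog of the main eIF4G scaffold, fell, with -1.06, -0.87 and -0.67 (mean -0.87 ± 0.19, adjusted p = 0.00345) by limma. Eif4g2 (DAP5), which lacks the eIF4E-binding part of eIF4G, had 1 probe on each side: probe 8847 gave -1.20, -0.96 and -0.55 (mean -0.90 ± 0.33, adjusted p = 0.00575) and probe 10234 0.68, 0.66 and 0.76 (mean 0.70 ± 0.05, adjusted p = 0.00334). Neither call of Eif4g2 was lost when an array was left out, and the gene mean was -0.10 ± 0.19 (adjusted p = 0.432).

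The helicase group had the lowest median of the role groups, -0.58, with 6 of 9 probes that fell and 1 that rose. Among all probes 25.9% fell and 31.4% rose. Eif4a1, the main helicase of initiation, gave -1.11, -1.29 and -0.71 on arrays 1, 2 and 3, a mean of -1.04 ± 0.29 or 2.05-fold lower (limma adjusted p = 0.00362). Eif4a3, the helicase of the exon junction complex, gave -0.76, -0.92 and -0.67 (mean -0.78 ± 0.13, adjusted p = 0.00334). Both were low on every array. The proteins that stimulate eIF4A showed the same sign: Eif4h gave -0.86, -0.80 and -0.33 (mean -0.66 ± 0.29, adjusted p = 0.0112), and Eif4b fell by probe 6366, with -0.55, -1.09 and -0.47 (mean -0.70 ± 0.34, adjusted p = 0.0124). The other Eif4b probe gave 0.06 ± 0.33 and did not pass (adjusted p = 0.732). Eif4a2, the close relative of Eif4a1, had 4 probes, a pair on each side of 0. Probe 1563 gave -0.58, -0.79 and -0.37 (mean -0.58 ± 0.21, adjusted p = 0.00957) and probe 30774 -0.46, -0.61 and -0.38 (mean -0.49 ± 0.11, adjusted p = 0.00923). Probe 19608 gave 0.33, 0.60 and 0.53 (mean 0.49 ± 0.14, adjusted p = 0.0104) and probe 29801 0.28, 0.25 and 0.17 (mean 0.23 ± 0.06, adjusted p = 0.0652). All but probe 29801 passed. Probes 30774 and 19608 lost the call without array 2 (adjusted p of 0.05 and 0.0529) and without array 3 (0.0547 and 0.0823).

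Among the proteins that hold eIF4E, 1 of 6 probes passed the test with all 3 arrays and 4 of 6 without array 1. With all 3 arrays 57.3% of all probes passed. Eif4enif1 (4E-T), which carries eIF4E into the nucleus and represses translation, gave -1.11, -0.97 and -0.71 (mean -0.93 ± 0.20, adjusted p = 0.00331) by limma, and fell. Eif4ebp1, the classic target of mTORC1, had probes at 0.46 ± 0.46 (adjusted p = 0.083) and 0.10 ± 0.10 (adjusted p = 0.392). Eif4ebp2 gave -0.15 ± 0.29 and -0.02 ± 0.19, with arrays on both sides of 0. Eif4ebp3 gave -0.26 ± 0.07 and missed the threshold as a probe (adjusted p = 0.0508) but passed in the fit by gene (adjusted p = 0.0451), though not without array 2 (0.175) or array 3 (0.26). Without array 1, the limma adjusted p was 0.00272 for Eif4ebp1 probe 18348, which was positive, 0.0297 for Eif4ebp2 probe 15254 and 0.0375 for the Eif4ebp3 probe, both negative.

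The eIF5A genes had probes near both ends of the range. eIF5A helps the ribosome over difficult stretches and carries hypusine, a modified lysine made for it alone. Eif5a2, the inducible relative, gave 0.72, 1.56 and 0.96 (mean 1.08 ± 0.43, adjusted p = 0.00616) by limma and rose. Eif5a probe 38417 gave -1.47, -1.59 and -0.57 (mean -1.21 ± 0.56, adjusted p = 0.00787), probe 29882 0.02, 0.26 and 0.04 (mean 0.11 ± 0.13, adjusted p = 0.363) and probe 2078 0.64, 0.65 and 0.64 (mean 0.64 ± 0.0048, adjusted p = 0.0036). So 1 probe of Eif5a fell, 1 rose with almost the same value on each array, and 1 did not pass. Dohh, the second enzyme of hypusine synthesis, fell (-0.46 ± 0.17, adjusted p = 0.0136), a call lost without array 2 (0.0654) or array 3 (0.0829). Eif6, which keeps the large subunit from joining too early, gave 0.24, 0.43 and 0.27 (mean 0.31 ± 0.10, adjusted p = 0.0328), and its call was lost without array 2 (0.173) or array 3 (0.153).

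Of the elongation factors, Eef1a1, the main eEF1A, did not pass, with -0.15, -0.36 and 0.05 (mean -0.15 ± 0.20, adjusted p = 0.277) by limma. Eef1a2, the form of muscle and neurons, fell on both probes: probe 22398 gave -0.62, -0.31 and -0.57 (mean -0.50 ± 0.16, adjusted p = 0.0113) and probe 6749 -0.61, -0.47 and -0.28 (mean -0.45 ± 0.17, adjusted p = 0.0158). All 6 values of Eef1a2 were negative, but probe 22398 lost its call without array 3 (0.0872), and probe 6749 without array 2 (0.0598) or array 3 (0.0544). In the same tumors, 5 of 7 skeletal muscle marker genes fell and 2 rose, beside 24.1% and 31.7% of all rows of the fit by gene. Their median was -0.47, with summed log2 ratios of -3.23, -3.86 and -2.49 on arrays 1, 2 and 3. Without array 3 the muscle calls numbered 3, since Myl1 (0.0798), Ckm (0.0603), Acta1 (0.15) and Tnnt3 (0.201) no longer passed. The part of muscle RNA in the Eef1a2 ratio was not tested.

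In the eEF1B exchange complex, Eef1d (delta subunit) had 3 negative probes. Probe 26443 gave -1.07, -1.22 and -0.86 (mean -1.05 ± 0.18, adjusted p = 0.00319) by limma, probe 28160 -0.63, -0.41 and -0.42 (mean -0.49 ± 0.13, adjusted p = 0.00979) and probe 25939 -0.82, -0.73 and 0.07 (mean -0.49 ± 0.49, adjusted p = 0.0775). The first pair fell. Without array 3 probe 28160 lost its call (0.0622) and probe 25939 passed (0.0277). Eef1b2 (beta subunit) fell by probe 2145, with -0.89, -1.02 and -0.51 (mean -0.81 ± 0.27, adjusted p = 0.00547), and rose by probe 17781, with 0.19, 0.37 and 0.55 (mean 0.37 ± 0.18, adjusted p = 0.0302). The rise was lost without array 2 (0.0983) or array 3 (0.202). Eef1e1, a scaffold of the tRNA synthetase complex, rose, with 1.05, 0.68 and 0.70 (mean 0.81 ± 0.21, adjusted p = 0.00404).

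Enzymes that act on the elongation factors had 3 of 9 probes that rose and 1 that fell, beside 31.4% and 25.9% of all probes. Eef2k, the kinase that slows elongation, rose by probe 14075, with 0.80, 0.66 and 0.56 (mean 0.67 ± 0.12, adjusted p = 0.00408) by limma, while probe 37541 gave 0.06 ± 0.14 (adjusted p = 0.635). The lysine methyltransferases of eEF1A differed: Eef1akmt1 (0.52 ± 0.20) and Eef1akmt4 (0.52 ± 0.12) rose, and Eef1akmt2 gave -0.14 ± 0.07 (adjusted p = 0.212). Eef1aknmt, which also methylates the first residue of eEF1A, had 4 probes. Probe 20230 gave -0.07, -0.72 and -0.54 (mean -0.44 ± 0.34, adjusted p = 0.0492), probe 35473 -0.74, 0.54 and -0.09, probe 16203 -0.09, -0.16 and -0.04 and probe 20064 0.09, 0.10 and -0.05. Only the first fell. The calls of Eef1akmt1 and Eef1aknmt were lost without array 2 (0.0502 and 0.184) and array 3 (0.0953 and 0.202), and that of Eef1akmt4 without array 3 (0.0736). The median of these 9 probes was 0.05, and -0.01 with the values as deposited.

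**Figure D2:**
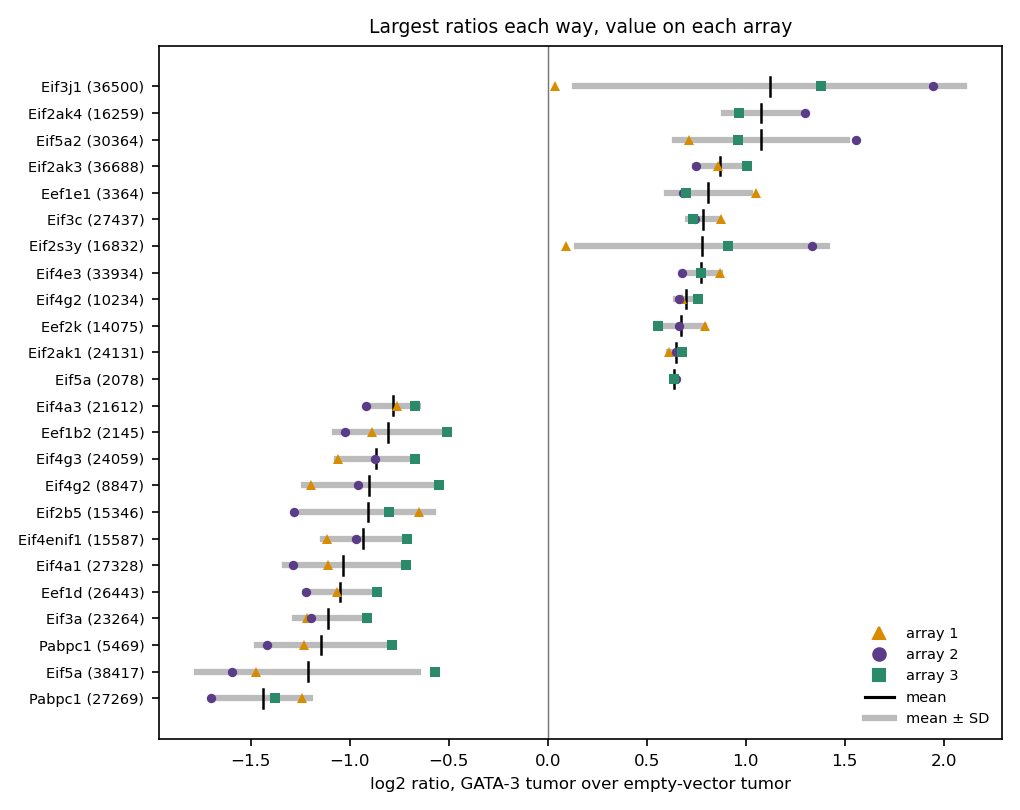
The 12 probes with the highest and the 12 with the lowest mean log2 ratio among those past the test, 1 per line, with the value on each array as a symbol, the mean as a tick and mean ± SD as a bar (x axis, GATA-3 tumor over empty-vector tumor). Eif2s3y and Eif3j1 probe 36500 have array 1 near 0, at 0.09 and 0.04, with arrays 2 and 3 far to the right.

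Genes listed for a TOP tract lay low as a group. The list held Eef1a1, Eef1b2, Eef1d, Pabpc1, Eif3e, Eif3h and Eif4b among the measured members. Of its 14 probes 8 fell and 2 rose (Eef1b2 and Eif3e, which each had a probe of the other sign), and the median was -0.54. The 84 member probes outside the list had 29 that fell, 23 that rose and a median of -0.16. Of all probes 57.3% passed the test, 25.9% fell and 31.4% rose, with a median of -0.02. The difference between the list and the other members was not tested. Pabpc1 and Eef1d make up 6 of the 14 probes and hold 3 and 2 of those that fell. Cytosolic ribosomal protein genes, whose messages are the classic TOP class, had 73 of 132 probes that fell and 25 that rose (74.2% past the test), with a median of -0.54. The mitochondrial ribosomal protein genes, with a median of -0.24, had 36 of 105 that fell and 15 that rose (48.6%), and the proteasome subunit genes, with a median of -0.28, had 22 of 53 that fell and 14 that rose (67.9%).

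Probes of 1 gene often pointed in opposite directions. Of the 29 genes with at least 2 probes, 10 had all means negative, 4 all positive and 15 had both signs. That is 48.3% with 1 sign, against 47.7% of all 5138 genes with at least 2 probes. Among genes with exactly 2 probes, 9 of 21 (42.9%) had 1 sign, against 1982 of 3599 (55.1%) of all genes. Every probe fell for Pabpc1 and Eef1a2, and every probe rose for Eif3m. A probe that rose and a probe that fell were found in 9 genes: Eif2a, Eif2s2, Eif3c, Eif3e, Eif4a2, Eif4e3, Eif4g2, Eif5a and Eef1b2. This was 31.0% of the 29, against 21.9% of all such genes. All probes of a gene carried 1 transcript accession in the annotation, and the labels do not say where in the transcript each probe lies. Copies of similar sequence, such as Eif4a1 and Eif4a2, Eef1a1 and Eef1a2, Eif1a and Eif1ax, or Eif2s3x and Eif2s3y, may share signal on an array, which was not tested.

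**Figure D3:**
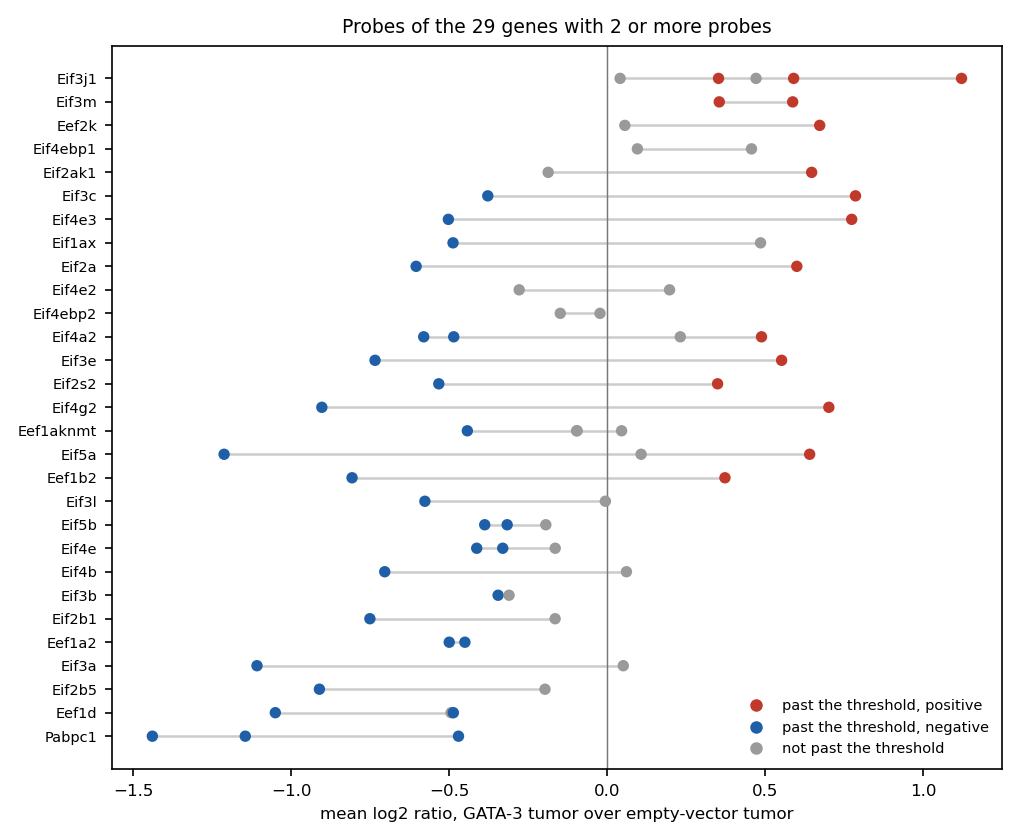
Each row is 1 of the 29 genes with 2 or more probes, each dot the mean log2 ratio of a probe over 3 arrays (x axis, GATA-3 tumor over empty-vector tumor), red where it rose, blue where it fell and grey where it did not pass limma's test. In 9 rows, such as Eif5a from -1.21 to 0.64, a blue and a red dot lie on opposite sides of 0.

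Across the 98 probes arrays 2 and 3 were more alike than either was to array 1. As a description over probes, which share the RNA of each array, Pearson's r was 0.94 for arrays 2 and 3, 0.77 for arrays 1 and 2 and 0.77 for arrays 1 and 3, against 0.94, 0.77 and 0.78 over all probes. Array 1 stood more than 1 from the mean of the other two for 5 probes. The difference, array 1 minus that mean, was -1.63 for Eif3j1 probe 36500, -1.57 for Eif3h, -1.45 for Eif5, -1.03 for Eif2s3y and 1.28 for Eif3j1 probe 12149. Arrays 2 and 3 differed by more than 1 for 1 probe, Eif5a probe 38417. On array 1 the sign was opposite to that on arrays 2 and 3 for 9 probes.

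**Figure D4:**
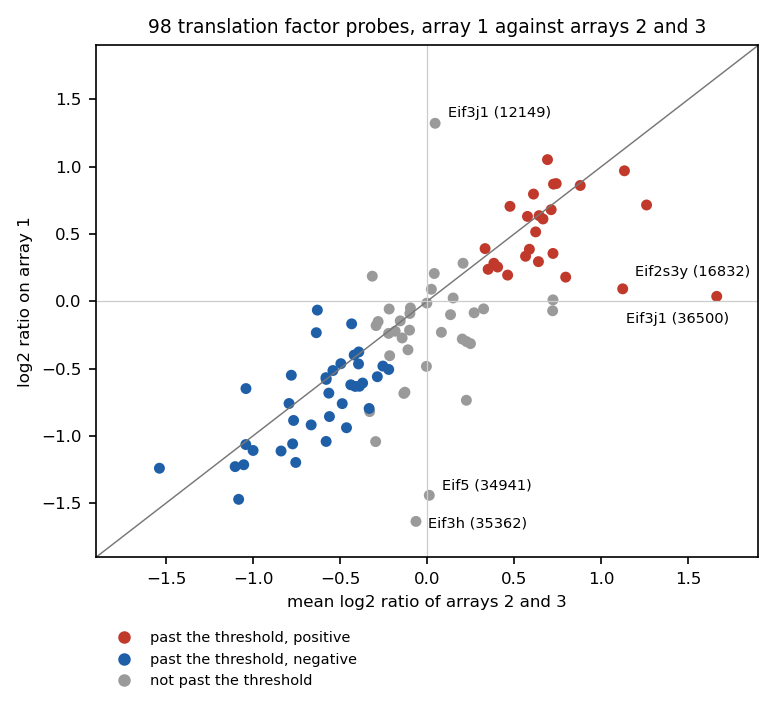
Each dot is 1 of the 98 probes, with its log2 ratio on array 1 (y axis) against its mean log2 ratio on arrays 2 and 3 (x axis); the diagonal marks equal values, and red, blue and grey stand for rose, fell and not past limma's test. The 5 named probes lie more than 1 from the diagonal, 4 below it and 1 above.

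The rest of the translation pathway, in 7 lists, had 63 of 78 genes measured, of which 11 rose and 25 fell (57.1% past the test in the fit by gene). Of all rows of that fit 55.8% passed, 31.7% with a positive and 24.1% with a negative mean. Of 14 other initiation partners and regulators 5 rose and 6 fell: Mknk2, a kinase of eIF4E, fell (-0.67 ± 0.07, limma adjusted p = 0.00344), as did the ribosome-binding ATPase Abcf1 (-0.74 ± 0.19, adjusted p = 0.00435), and the Pabpc1 partner Paip1 rose (0.65 ± 0.05, adjusted p = 0.00349). The calls of this list numbered 5 without array 2 and 3 without array 3, where Mknk2, Abcf1 and Paip1 were the genes that passed. Of 5 termination and rescue genes, the release factor Etf1 (-0.98 ± 0.26, adjusted p = 0.00354) and the rescue factor Pelo (-0.82 ± 0.16, adjusted p = 0.00335) fell, and the other 3 passed only without array 1, with positive means. Of 16 genes of cytosolic tRNA synthetases and their scaffolds 6 fell and 1 rose. Vars (-1.01 ± 0.22, adjusted p = 0.0031), Kars (-1.14 ± 0.37, adjusted p = 0.00411) and Aars (-0.73 ± 0.13, adjusted p = 0.00359), for valine, lysine and alanine, were among those that fell, and the threonine enzyme Tars was the one that rose (1.05 ± 0.37, adjusted p = 0.00496). In these lists, the tRNA synthetases had 14 of 16 negative means. Without array 3 their calls numbered 4, with Aimp2 (0.0864), Hars (0.0765) and Farsa (0.0858) no longer past the threshold by limma's adjusted p, and without array 2 they numbered 5.

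Of 8 measured genes of the mTORC1 pathway 2 rose and 2 fell, beside 31.7% and 24.1% of all rows of the fit by gene. The median of the 8 was -0.14. The inhibitor Deptor (0.45 ± 0.12) and the activating GTPase Rheb (0.41 ± 0.19) rose, and the substrate adaptor Rptor (-0.31 ± 0.15) and the S6 kinase gene Rps6kb2 (-0.39 ± 0.26) fell. Without array 3 each of these 4 calls was lost (limma adjusted p of 0.0805, 0.0956, 0.0926 and 0.0693), those of Deptor, Rptor and Rps6kb2 also without array 2 (0.0581, 0.164 and 0.176), and those of Rptor and Rps6kb2 without array 1 (0.0742 and 0.0535). The Rps6kb2 value averaged 2 probes of opposite sign, with means of -1.29 and 0.51. Of 8 mitochondrial translation factors, Mtrf1l, a release factor, rose (1.21 ± 0.37, adjusted p = 0.00363), and the initiation factor Mtif3 (-0.51 ± 0.13, adjusted p = 0.00832) and the elongation factor Tufm (-0.45 ± 0.22, adjusted p = 0.0225) fell. The call of Tufm was lost without array 2 (0.0554) or array 3 (0.0643).

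Lists of cell type markers had calls in both directions, where 55.8% of all rows passed the fit by gene. Luminal epithelial markers had 3 of 6 genes that fell (Krt18, Krt19 and Krt8) and 1 that rose (Cdh1), with summed log2 ratios of -2.84, -3.29 and -2.10 on arrays 1, 2 and 3. Adipocyte markers had 3 of 5 genes that rose, led by Fabp4 (1.84 ± 0.15), with sums of 1.45, 4.04 and 3.88. Plin1 (-0.31 ± 0.57) and Adipoq (-0.09 ± 0.13) had negative means and did not pass. On array 1 Fabp4 alone gave 1.76, more than the sum of its list. Fibroblast markers had 3 of 5 genes that fell, with sums of -3.23, -1.87 and -1.50. Myeloid markers had 3 of 4 that rose and 1 that fell (sums 1.10, 1.74 and 1.51), lymphocyte markers 3 of 5 that rose and 1 that fell (0.58, 0.16 and 0.71), and endothelial markers 2 of 4 that rose and 1 that fell (0.63, 1.44 and 1.03). Without array 3 the fibroblast calls numbered 1, with Pdgfra (0.0796) and Col1a2 (0.105) lost by limma's adjusted p, and the myeloid calls 2, with Adgre1 (0.0796) and Ptprc (0.2) lost. Without array 2 or array 3, Lep of the adipocyte list (0.0967 and 0.145) and Ms4a1 of the lymphocyte list (0.202 and 0.201) did not pass, so both lists had fewer calls. The part of these cell types in the ratios of the translation factors was not tested.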

How the data were processed

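Total RNA of GATA-3 tumors was set against that of empty-vector tumors on 3 two-color arrays, per the labels. The deposited values are 1 log ratio per probe and array, taken as log2; the labels state neither scanner nor background correction, normalization or log base. Their medians were -0.02, -0.07 and -0.07, and 1 value was missing. Here each array's median was set to 0, and an intercept was fitted to each row with limma 3.58.1 (lmFit and eBayes, R 4.3.3), with Benjamini-Hochberg adjustment over all rows. The code was first run on simulated data with independent errors and few changed rows. That run does not cover dye effects, errors shared between arrays or the share of rows called here. A second fit averaged the probes of a symbol and kept unnamed probes as rows (31059 rows). The platform annotation named 22972 of the fitted probes with 1 symbol and 16003 rows with none. Probes named with values were the 12 most positive and 12 most negative past the test, all those of genes with 3 or more probes, and the remaining members by role. Of each pathway list up to 3 genes of smallest p were named. Some list genes were chosen after their values were seen (Atf4, Tars, Rps6kb2, Fabp4, Plin1, Adipoq, the keratins and genes whose call changed without 1 array). Members, lists and tests were chosen with earlier results of these data known. No explanation was tested.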

Additional observations from a re-analysis of the deposited data

How the results depend on the processing

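The median of the translation factor probes stayed negative under each alternative tried, from -0.24 with the values as deposited to -0.13 without array 1, and the number of the 13 role groups with a negative median ranged from 7 to 10. No called probe changed sign under an alternative. Of the 62 called probes, 34 (12 that rose and 22 that fell) kept the call in 8 settings (values as deposited, arrays scaled, values on at least 2 arrays, robust eBayes, rows of highest SD left out, and each array left out), and 28 lost it without at least 1 array. Of the 36 probes that missed the test, 6 passed without array 1 and 2 without array 3. Leaving out 1 array gave 38 to 66 called probes and 14 to 31 called genes of the set, 16 to 41 called pathway genes, and 71 to 102 called probes of cytosolic ribosomal proteins, 22 to 55 of mitochondrial ribosomal proteins and 19 to 41 of the proteasome. With a mean of at least 1 in size also required, 9 probes and 4 genes of the set passed, with 4 pathway genes, 42 probes of cytosolic and 4 of mitochondrial ribosomal proteins, and 6 of the proteasome. Averaging probes per gene gave 32 calls in place of 62, over fewer rows, and counting the pathway by probe gave 63 calls of 100 in place of 36. A plain one-sample test, which does not pool the spread over probes, left 1 probe of the set (Eif5a 2078), 0 genes of the set, 0 pathway genes and 0 probes of each of the 3 other families after Benjamini-Hochberg adjustment. At an unadjusted p under 0.05 it gave 47 of 98 probes, 28 of 57 genes, 25 of 63 pathway genes, 69 of 132, 41 of 105 and 28 of 53, where limma's adjusted test called 62, 32, 36, 98, 51 and 36. The calls thus rest on limma's pooled spread over 3 arrays. The title prefix as a random block was not run, since 3 arrays gave no estimate of its correlation. No paired analysis was possible because each array already holds the ratio of both tumors and there is 1 group of arrays. With 3 arrays an exact sign-change test cannot go below p = 0.25.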
